A study of Mus musculus with 12 samples.

Results

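Cyclic nucleotide phosphodiesterases are the enzymes that break down cAMP and cGMP, the second messengers made by adenylyl and guanylyl cyclases. In T cells cAMP acts largely through protein kinase A and dampens signalling from the antigen receptor, and phosphodiesterases set how much of it builds up and where. The families differ in what they hydrolyse: PDE5 is specific for cGMP, PDE1 and PDE2 take both nucleotides, PDE3 takes cAMP and is inhibited by cGMP, and PDE4, PDE7 and PDE8 are specific for cAMP. Described here are 9 phosphodiesterase genes, Pde5a, Pde2a, Pde1b, Pde3b, Pde4a, Pde4b, Pde4d, Pde7a and Pde8a, taken by symbol from a table of 43626 genes. The set was chosen because Pde5a was much lower, and Pde2a higher, in cells carrying an Eomes reporter signal, so their differences between reporter-positive and reporter-negative cells are given as a description without a test. All 9 passed the filter on low counts, as did 13238 genes in all.

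The cells were CD4+ T cells from mice in which green fluorescent protein (GFP) reports the transcription factor gene Eomes. Every donor carried the alleles Eomes flox/GFP. Donors called Het had no cre, and donors called KO also carried Lck-cre, in which the promoter of a T-lineage kinase drives the recombinase that removes floxed DNA. CD45RBhi CD25- naive CD4+ T cells of either genotype were transferred into adult male Rag2-/- mice, which lack T and B cells of their own but keep myeloid, erythroid and NK cells. The CD4+ cells of each spleen were sorted by GFP 3 weeks later, giving 4 groups of 3 libraries from 6 recipients: GFP-negative and GFP-positive cells of Het origin, and the same for KO. The 2 libraries of a recipient share a number within a genotype, whereas Het and KO libraries with equal numbers come from different mice. The sources used here do not give strain, donor age, donor sex or any pooling of donors.

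Total counts per library ranged from 2116894 (KO GFP-positive 2) to 18167236 (KO GFP-negative 3). In Het GFP-positive 2 and KO GFP-positive 2, 4 features that each took over 5% of some library held 58.3% and 54.3% of the counts, against 16.3% to 30.9% elsewhere. The GFP-positive libraries came from 18000 to 117000 sorted cells and the GFP-negative ones from 645000 to 2100000. Levels are CPM, reads per 1e6 of a library size scaled by trimmed mean of M values (TMM). Eomes, the gene behind the reporter and the target of the deletion, stood at 114.8, 123.3 and 89.8 CPM in Het GFP-positive libraries 1, 2 and 3 and at 46.6, 45.7 and 31.6 CPM in the KO GFP-positive ones. It was between 1.95 and 9.19 CPM in the 6 GFP-negative libraries. The counts are per gene and the deleted stretch is not given, so Eomes counts in libraries labelled KO do not measure how complete the deletion was. Het and KO GFP-positive cells differed in Eomes by 1.41 on the log2 scale (SE 0.43, FDR 0.421), which did not pass edgeR's quasi-likelihood test.

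The sorted identity was checked by marker genes. Cd4 ranged from 435 to 946 CPM and Cd3e from 127 to 240 CPM. Cd8a (at most 2.14 CPM), Ncr1 (at most 3.57 CPM) and Pf4 (at most 0.714 CPM), which mark CD8 T cells, NK cells and platelets, were low. The summed level of 15 myeloid markers was higher in the GFP-positive library of all 6 recipients. It ranged from 199.6 to 1649 CPM in Het GFP-negative, 525 to 3915 CPM in Het GFP-positive, 46.0 to 646 CPM in KO GFP-negative and 324 to 1381 CPM in KO GFP-positive libraries. Its defining genes Lyz2, Csf1r, Itgam and Mpo were above 0 in every library. The sum of the 8 erythroid markers (5.38 to 54.7, 36.1 to 154.9, 20.9 to 97.0 and 86.5 to 295.5 CPM in the same order of groups) was likewise higher on the GFP-positive side in 6 of 6 recipients. So was the sum of the 5 platelet and megakaryocyte markers, which reached 12.5 CPM at most. The sum of the 7 CD4 T-cell markers was lower there in 6 of 6, at 1803 to 2488, 1335 to 1454, 2096 to 2356 and 1409 to 1874 CPM. Not every marker in that sum was lower. In the same order of groups Cd4 was 649 to 946, 438 to 476, 738 to 755 and 435 to 528 CPM. Cd3e was 127 to 222, 199 to 240, 174 to 217 and 195 to 198 CPM. Endothelial, NK, B-cell and CD8 T-cell lists showed no common direction over recipients (higher in 2, 3, 3 and 3 of 6). The part of these other cells in the results below was not tested beyond the values given.

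Pde5a encodes the cGMP-specific phosphodiesterase that sildenafil inhibits. The gene (ENSMUSG00000053965.6, GRCm38 chromosome 3, 122729158 to 122859374, plus strand) had 20, 7 and 19 counts in the 3 Het GFP-positive libraries against 1065, 997 and 1151 in the Het GFP-negative ones. In CPM these were 2.67, 2.73 and 1.85 against 80.3, 67.9 and 65.3. The KO libraries held 2.87, 1.43 and 3.42 CPM in GFP-positive cells (27, 2 and 29 counts) and 28.8, 34.7 and 22.4 CPM in GFP-negative cells. All 6 GFP-positive libraries thus lay far below all 6 GFP-negative ones. The fitted log2 difference between GFP-positive and GFP-negative cells was -4.93 (SE 0.27) in Het, a 30.4-fold lower level, and -3.30 (SE 0.26) in KO, a 9.83-fold lower level. Within single recipients the log2 difference ran from -5.01 to -4.55 in Het and from -4.44 to -2.65 in KO. In bulk RNA, fewer cells with the transcript and less transcript per cell cannot be told apart.

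Pde2a encodes a phosphodiesterase that hydrolyses both nucleotides and is itself stimulated by cGMP, so that cGMP lowers cAMP where it is present. The deposited gene model (ENSMUSG00000030653.12, chromosome 7, 101421691 to 101512829, plus strand) spans 4220 exon bases. Of these, 4218 (99.95%) lie in exons that GENCODE M21 assigns to Pde2a (ENSMUSG00000110195, start 101421691) and 3893 (92.25%) in exons of Gm45837, the gene to which GENCODE M21 gives the deposited identifier and an upstream start at 101410886. The name Pde2a follows the authors' deposited tables. Het GFP-positive libraries held 78.8, 95.2 and 61.1 CPM, above the 29.1, 29.0 and 33.4 CPM of the Het GFP-negative ones. In KO cells the groups overlapped, with 21.7, 31.4 and 16.0 CPM in GFP-positive and 30.2, 20.7 and 18.7 CPM in GFP-negative libraries. The log2 difference between GFP-positive and GFP-negative cells was 1.35 (SE 0.25) in Het and -0.07 (SE 0.26) in KO. Within recipients Pde2a was higher in GFP-positive cells in 3 of 3 Het pairs (0.87 to 1.71) and in 1 of 3 KO pairs (-0.48 to 0.60).

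**Figure D1:**
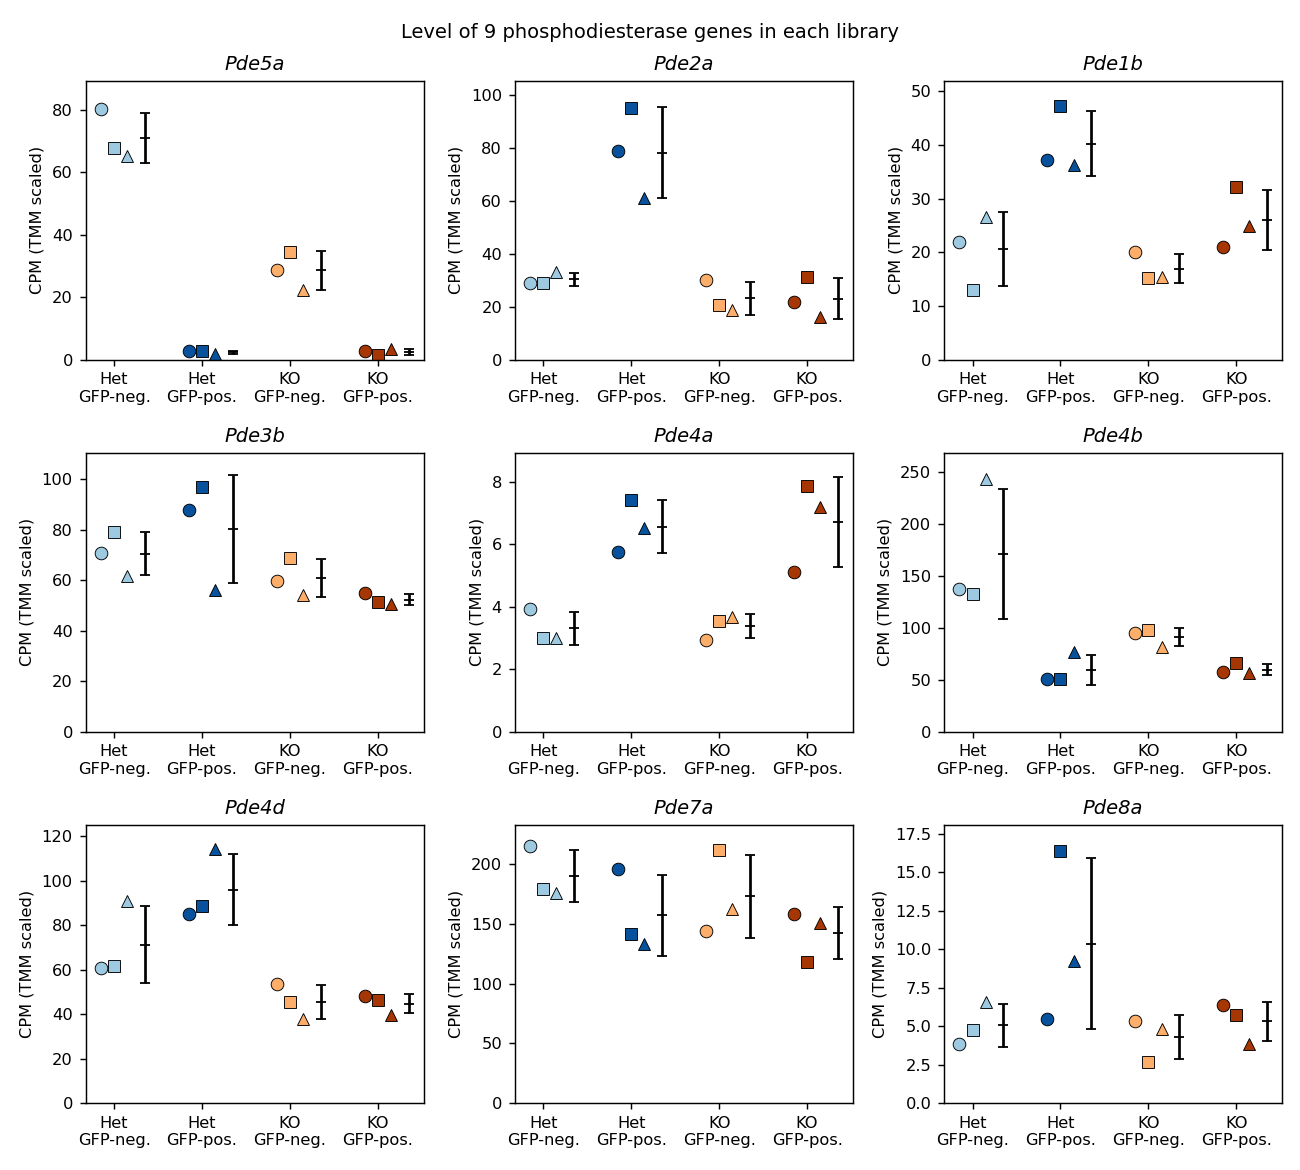
CPM (TMM scaled, linear axes from 0) of the 9 phosphodiesterase genes in each of the 12 libraries, 1 panel per gene. Circles, squares and triangles are recipients 1, 2 and 3 of a genotype, and the black bar beside each group is its mean ± SD (n = 3). Pde5a is near the axis in all 6 GFP-positive libraries, and Pde2a stands apart in the 3 Het GFP-positive ones.

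The stretches of 250 bases before the start of these 2 genes are shown because the genes have opposite reporter differences in Het cells. Each stretch ends at the start of the deposited model, which for Pde2a is 1 of 5 RefSeq starts. Both are from RefSeq, build GRCm38.p6, plus strand, 5′ to 3′, with CG dinucleotides in capitals. Pde5a lies at chr3:122728908-122729157 and Pde2a at chr7:101421441-101421690.
Pde5a: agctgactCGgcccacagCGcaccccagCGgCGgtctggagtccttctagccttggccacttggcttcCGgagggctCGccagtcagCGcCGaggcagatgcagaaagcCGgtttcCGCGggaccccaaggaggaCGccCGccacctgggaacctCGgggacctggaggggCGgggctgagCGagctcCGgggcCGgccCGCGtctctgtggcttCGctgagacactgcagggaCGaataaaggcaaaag
Pde2a: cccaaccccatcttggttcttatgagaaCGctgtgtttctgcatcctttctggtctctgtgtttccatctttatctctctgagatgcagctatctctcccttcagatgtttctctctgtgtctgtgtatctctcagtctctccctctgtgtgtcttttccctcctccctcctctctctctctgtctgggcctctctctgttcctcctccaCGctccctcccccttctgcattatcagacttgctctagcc
The Pde5a window holds 22 CG dinucleotides and 68.4% G and C, and the Pde2a window 2 and 50.8%, where the median over 32851 RefSeq windows of that length is 6 CG dinucleotides. Windows at the other Pde2a starts hold 2, 15, 19 and 6 CG dinucleotides, with 51.6%, 61.6%, 68% and 55.6% G and C. Which start these cells used was not tested. Neither of the 2 printed windows contains, on either strand, the T-box site AGGTGTGA (in 1.12% of all windows) or its core GGTGTG (16.3%), which T-box factors such as EOMES recognise. Neither contains the cAMP response element TGACGTCA (1.55%) or its half-site TGACG (17.8%). The core lies within the T-box site and the half-site within the response element, so these searches overlap. RefSeq windows were used for 7 of the 9 genes (all but Pde3b and Pde7a), 18 in all. The T-box core was in 4 of these (Pde1b, Pde4a and Pde4b) and the half-site in 3 (Pde4a, Pde4b and Pde8a). A letter match is not a binding site, and its absence says only that these letters are not in the window.

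Since genes differ in length, levels were compared between genes as CPM per kilobase of exon. The ratio of Pde2a to Pde5a on this scale was 0.578, 0.681 and 0.814 in Het GFP-negative libraries and 47.1, 55.6 and 52.7 in Het GFP-positive ones. It was 1.68, 0.954 and 1.33 in KO GFP-negative and 12.0, 35.1 and 7.48 in KO GFP-positive cells. Every GFP-positive library thus lay above every GFP-negative one, and the 3 Het GFP-positive libraries above the 3 KO ones. Pde5a and Pde2a were chosen for their fall and rise with the reporter, so the direction of this ratio follows from the choice. In KO cells Pde2a itself differed by only -0.07 on the log2 scale (SE 0.26). The KO GFP-positive 2 value of 35.1 rests on 2 counts of Pde5a and has an exact binomial 95% interval of 9.15 to 299, which covers counting error only, so its place among the others is loose. The intervals of the 3 Het GFP-positive ratios were 30.2 to 77.7, 26.6 to 140.0 and 33.5 to 88.1.

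**Figure D2:**
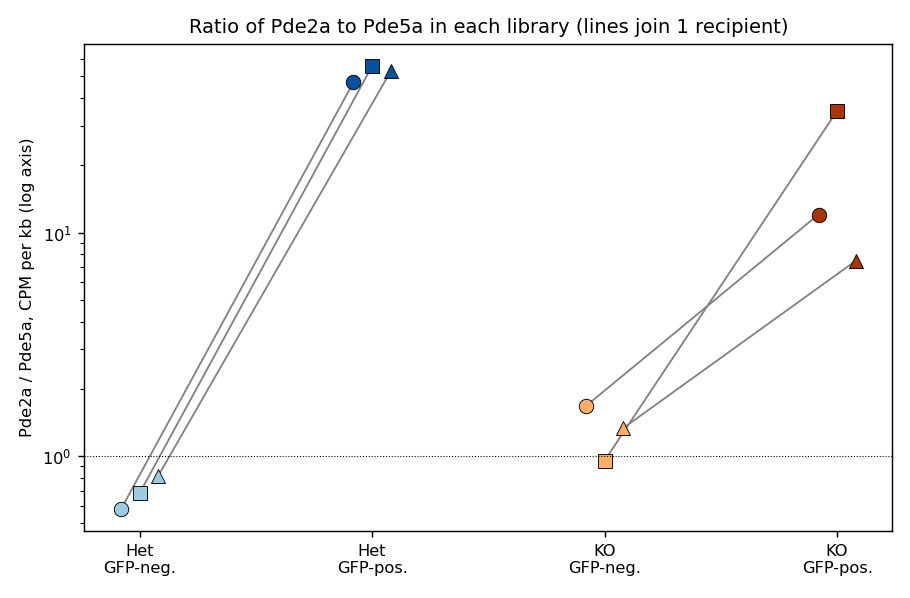
Ratio of Pde2a to Pde5a, each in CPM per kilobase of exon, on a log axis. Each grey line joins the GFP-negative and GFP-positive library of 1 recipient (circle, square and triangle: 1, 2 and 3), and the dotted line marks a ratio of 1. All 6 lines go up, to 47.1 to 55.6 in Het and to 7.48 to 35.1 in KO cells. The genes were chosen for their fall and rise with the reporter, so this direction follows from the choice.

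Pde1b encodes the other dual-specificity enzyme of the set, which calcium and calmodulin stimulate. The gene (ENSMUSG00000022489.5, chromosome 15, 103503298 to 103530052, plus strand) stood at 21.9, 13.1 and 26.6 CPM in Het GFP-negative and 37.2, 47.2 and 36.2 CPM in Het GFP-positive libraries. KO cells held 20.1, 15.3 and 15.5 CPM without GFP and 21.04, 32.1 and 24.9 CPM with it. GFP-positive libraries lay above GFP-negative ones in both genotypes, with log2 differences of 0.96 (SE 0.26) and 0.58 (SE 0.26), and this was so in 6 of 6 recipients. Pde3b (ENSMUSG00000030671.8, chromosome 7, 114415281 to 114539251, plus strand), the cGMP-inhibited cAMP phosphodiesterase that insulin signalling activates, had small reporter differences. Its 70.7, 79.1 and 61.9 CPM in Het GFP-negative libraries overlapped with 88.0, 96.8 and 56.3 CPM in Het GFP-positive ones (0.18, SE 0.19). In KO libraries it was 59.7, 68.9 and 54.2 against 54.8, 51.4 and 50.7 CPM (-0.22, SE 0.20).

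The PDE4 genes encode cAMP-specific enzymes that rolipram inhibits, and the 3 members did not go the same way. Pde4b (ENSMUSG00000028525.12, chromosome 4, 102087543 to 102607259, plus strand) was at 137.5, 132.5 and 243.3 CPM in Het GFP-negative libraries and 50.7, 50.7 and 76.4 CPM in Het GFP-positive ones. KO cells held 95.3, 97.4 and 81.2 CPM without GFP and 57.2, 65.7 and 56.0 CPM with it. Pde4b was lower with GFP in all 6 recipients, by -1.67 to -1.38 in Het and -0.74 to -0.54 in KO on the log2 scale, and the fitted values were -1.52 (SE 0.24) and -0.62 (SE 0.24). Pde4a (ENSMUSG00000032177.12, chromosome 9, 21165714 to 21213248, plus strand), of low level, was higher with GFP in 6 of 6. It had 3.92, 3.00 and 3.01 CPM in Het GFP-negative against 5.73, 7.42 and 6.52 CPM in Het GFP-positive libraries. The KO values were 2.93, 3.53 and 3.67 against 5.10, 7.85 and 7.19 CPM, and the fitted log2 differences 0.97 (SE 0.28) and 0.95 (SE 0.28). With an offset for GC content and length these were 0.57 in either genotype. Pde4d (ENSMUSG00000021699.13, chromosome 13, 108449948 to 109953461, plus strand) went from 60.9, 61.8 and 91.1 CPM in Het GFP-negative to 85.2, 88.6 and 114.3 CPM in Het GFP-positive libraries, groups that overlap although all 3 recipients were higher with GFP (0.33 to 0.52). Its KO levels were 53.4, 45.4 and 38.0 CPM without and 48.0, 46.4 and 39.8 CPM with GFP, a log2 difference of -0.03 (SE 0.20), against 0.43 (SE 0.20) in Het cells. With the GC and length offset the Pde4d differences were -0.34 in KO and 0.12 in Het cells, and without Het GFP-negative 3 the Het value was 0.66.

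Pde7a and Pde8a encode high-affinity cAMP-specific enzymes that rolipram does not inhibit. Pde7a (ENSMUSG00000069094.8, chromosome 3, 19223108 to 19311322, minus strand) lay between 117.8 and 214.6 CPM, and the GFP groups overlapped in both genotypes. Its values were 214.6, 178.8 and 175.6 CPM in Het GFP-negative and 195.9, 141.7 and 133.3 CPM in Het GFP-positive cells. In KO cells they were 144.3, 211.4 and 162.3 CPM without and 158.0, 117.8 and 150.6 CPM with GFP. The fitted log2 differences were -0.27 (SE 0.20) in either genotype. Pde7a shares 48 exon bases with Gm16093 on the opposite strand, a gene with 44 counts in all, and the sources used here do not say whether counting used the strand. Pde8a (ENSMUSG00000025584.13, chromosome 7, 81213596 to 81334533, plus strand) was low, at 3.84, 4.77 and 6.58 CPM in Het GFP-negative and 5.47, 16.4 and 9.25 CPM in Het GFP-positive libraries. In KO cells it was 5.38, 2.68 and 4.82 CPM without and 6.38, 5.71 and 3.89 CPM with GFP. The groups overlapped in both genotypes, with log2 differences of 0.98 (SE 0.42) and 0.30 (SE 0.43), and the high value of Het GFP-positive 2 rests on 42 counts.

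By edgeR's quasi-likelihood test at a false discovery rate (FDR) of 0.05, 3.45% of all tested genes were called between GFP-positive and GFP-negative Het cells and 0.128% in KO cells. Of the members, 3 and 1 were called. With the recipient as a block the shares were 22.2% and 17.7%, and 6 and 3 members were called. Nothing is read from these counts, since the members were chosen on this contrast. The members' median log2 difference was 0.43 in Het and -0.07 in KO, beside -0.02 and -0.02 over all tested genes.

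**Figure D3:**
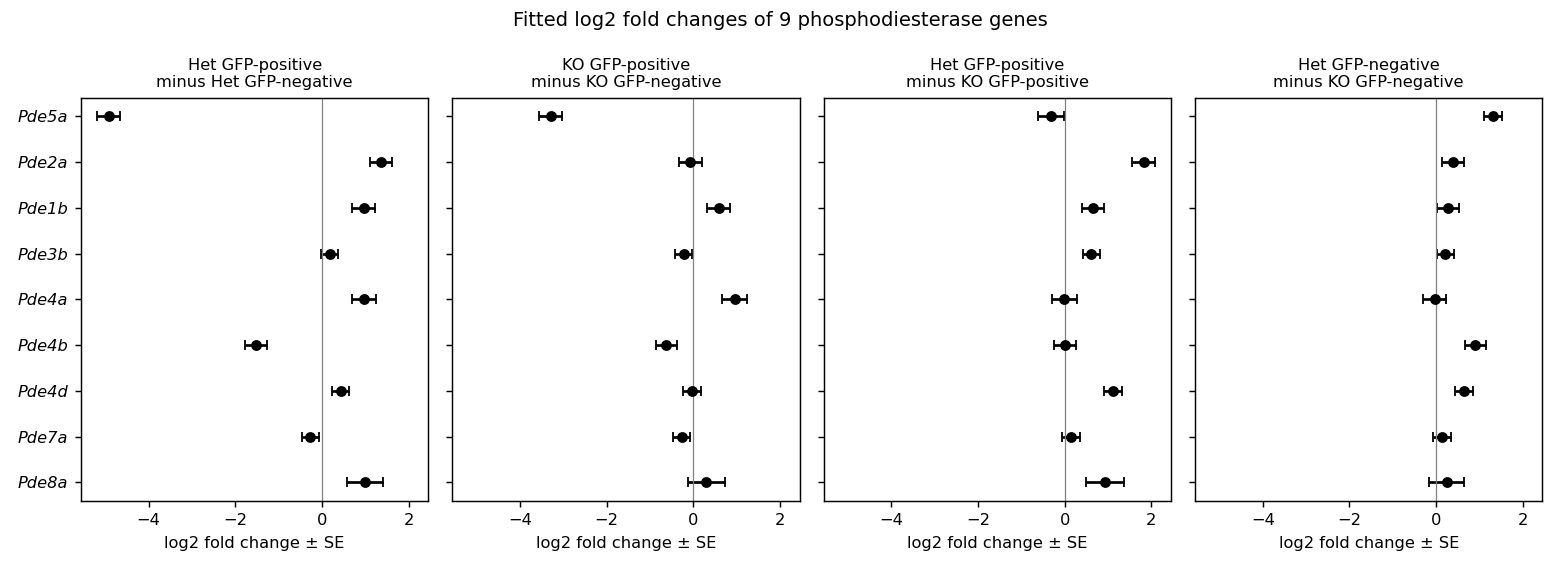
Fitted log2 fold changes ± SE of the 9 genes in 4 comparisons (edgeR, 3 libraries per group). The left 2 panels show GFP-positive minus GFP-negative cells in each genotype, on which the genes were chosen, and the right 2 panels show Het minus KO cells. Pde5a lies at -4.93 and -3.30 on the left, and Pde2a at 1.82 in the third panel.

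The levels of the 9 genes per kilobase were added within each library. In Het cells the sum was 83.3 ± 7.87 CPM per kilobase without and 81.5 ± 8.33 with GFP, and in KO cells 60.6 ± 6.14 and 52.1 ± 1.90 (SD, 3 libraries each). The Het groups overlapped, whereas the KO groups lay apart by a narrow gap (54.3 to 66.6 against 50.02 to 53.7). Whether that gap exceeds counting and scaling error was not tested, and the members were chosen on this contrast. The make-up of the sum differed more. Pde5a gave 12.8% of the sum in Het GFP-negative and 0.438% in Het GFP-positive cells, and 6.97% and 0.740% in the KO groups. The dual-specificity genes Pde1b and Pde2a together gave 16.9% without and 39.3% with GFP in Het cells, and 18.7% and 27.3% in KO cells. The 5 cAMP-specific genes gave 57.9% and 46.1% in Het and 59.8% and 57.4% in KO cells. These shares weigh transcripts only and say nothing of enzyme amounts.

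**Figure D4:**
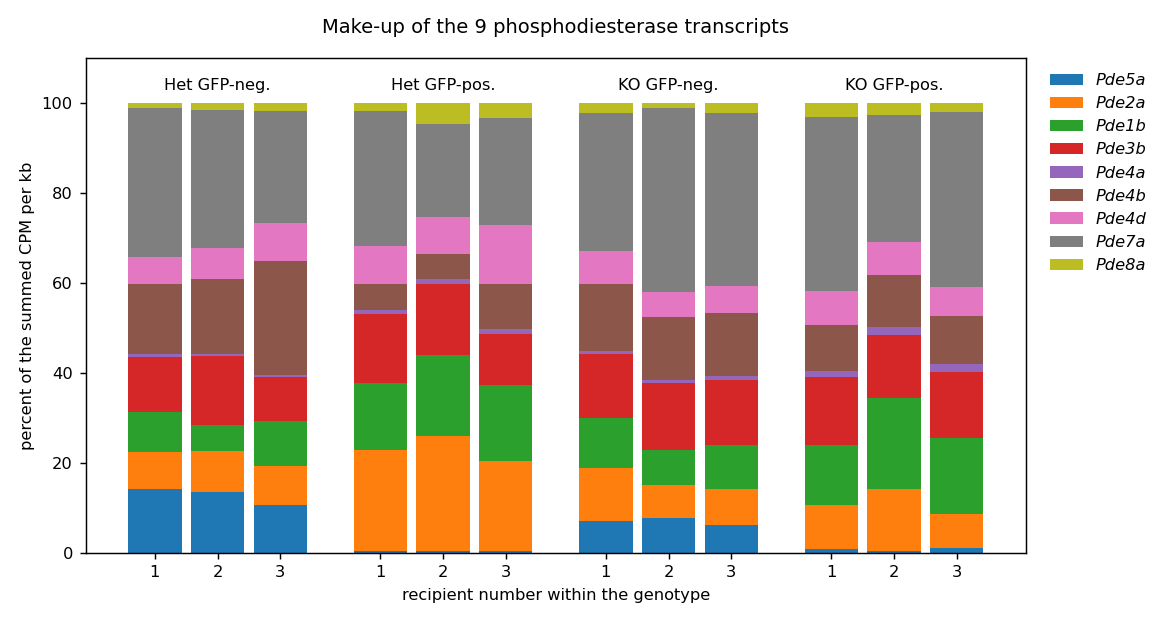
Share of each gene in the summed CPM per kilobase of the 9 phosphodiesterase genes, as stacked bars from 0 to 100% for each library, ordered by group and recipient. The Pde5a segment at the base shrinks from 12.8% to 0.438% in Het and from 6.97% to 0.740% in KO cells (group means), and the Pde2a segment above it is 22.6% in Het GFP-positive cells against 8.69% to 10.4% in the other groups.

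In the order of levels per kilobase, Pde7a came first in all 4 groups, with 18.3 to 24.5 CPM per kilobase. In Het GFP-negative cells Pde4b (16.2 ± 5.93), Pde5a (10.6 ± 1.19), Pde3b (10.2 ± 1.25), Pde2a (7.22 ± 0.592), Pde1b (6.95 ± 2.33), Pde4d (5.94 ± 1.43), Pde8a (1.25 ± 0.345) and Pde4a (0.432 ± 0.0692) followed. The ranges of neighbours overlapped for Pde7a and Pde4b, Pde5a and Pde3b, Pde2a and Pde1b, and Pde1b and Pde4d. In Het GFP-positive cells Pde2a (18.6 ± 4.04) was second, overlapping Pde7a and Pde1b (13.6 ± 2.06), and Pde5a was last at 0.359 ± 0.0731, below Pde4a (0.857 ± 0.110) without overlap. In KO GFP-negative cells Pde5a was sixth (4.25 ± 0.911), overlapping Pde2a (5.51 ± 1.46) and Pde4d (3.80 ± 0.640). In KO GFP-positive cells it was last again (0.382 ± 0.153), and Pde1b (8.80 ± 1.91) and Pde3b (7.58 ± 0.322), which overlapped, came after Pde7a.

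Setting Het against KO cells within the GFP-positive gate is meant to address dependence on EOMES, the purpose that the design text gives. Only KO donors carried Lck-cre, so deletion of Eomes and presence of the recombinase cannot be told apart in this or any comparison of Het with KO cells. The comparison shares its Het libraries with the Het reporter comparison and its KO libraries with the KO one, so its values are not separate from those above. Pde2a was called higher in Het cells, 1 of 9 members, where 0.106% of all tested genes were called. Its 61.1 to 95.2 CPM in Het against 16.0 to 31.4 CPM in KO libraries gave a log2 difference of 1.82 (SE 0.27, edgeR FDR 0.0266), a 3.54-fold higher level. The groups did not overlap, and the exact two-sided permutation p was 0.1, the smallest that 3 against 3 allows. The call was lost without Het GFP-positive 1 or 2 (FDR 0.103 and 0.140), without KO GFP-positive 1 or 3 (0.152 and 0.161) and when only the 2 groups were fitted (0.218). Over 17 alternatives the log2 difference stayed between 1.599 and 2.31 and the FDR between 4.64e-07 and 0.218.

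The myeloid marker sum in Het GFP-positive libraries 1, 2 and 3 was 525, 2298 and 3915 CPM and Pde2a 78.8, 95.2 and 61.1 CPM. In the KO GFP-positive libraries the sums were 632, 1381 and 324 CPM and Pde2a 21.7, 31.4 and 16.0 CPM. The part of myeloid cells in this difference was not tested. Transcripts of 4 Y-linked genes also differed with genotype, summing to 0 to 32.0 CPM in the 6 Het and 41.5 to 221.3 CPM in the 6 KO libraries, and Xist was 940 to 1819 against 55.7 to 1151 CPM. Donor sex is not labelled, so a difference in the sex of the cells and the genotype cannot be told apart in any comparison of Het with KO cells. These transcripts also differed within KO recipients. Xist was 574.9, 499.9 and 633 CPM in KO GFP-negative and 968.2, 55.68 and 1151 CPM in KO GFP-positive libraries. The Y-linked sums were 130.5, 201.1 and 126.5 against 41.55, 221.3 and 96.85 CPM. The part of this in the reporter differences was not tested.

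Pde4d was the next member, at 85.2 to 114.3 CPM in Het and 39.8 to 48.0 CPM in KO GFP-positive libraries without overlap, and its log2 difference of 1.11 (SE 0.21) did not pass by edgeR (FDR 0.0858). It passed in 3 of 17 alternatives: with no filter on low counts (FDR 0.0254), with DESeq2 (0.000774) and with sample weights in limma-voom (0.0216); the highest FDR was 0.411. The authors' deposited table for this pair of groups, whose sign is that of KO minus Het by the counts, lists Pde2a at -1.46 (adjusted p 8.72e-05) and Pde4d at -0.97 (adjusted p 0.00291). Pde3b and Pde1b did not overlap between the groups either, but their log2 differences of 0.61 (SE 0.20, FDR 0.517) and 0.65 (SE 0.26, FDR 0.712) did not pass edgeR's test. In all, 4 of 9 members did not overlap, against 7.48% of all tested genes. Pde8a differed by 0.93 (SE 0.44, FDR 0.814), Pde5a by -0.32 (SE 0.30, FDR 0.993) and Pde7a by 0.14 (SE 0.20, FDR 1.00). For Pde4a and Pde4b the differences were -0.01 (SE 0.29) and 0.01 (SE 0.25). The members' median was 0.61 and that of all tested genes 0.01, which describes a list chosen with these libraries in view.

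Among GFP-negative cells, 0 members and 0% of all tested genes were called between Het and KO by edgeR, while 3 members and 695 genes in all had an unadjusted p under 0.05. Pde5a was the highest of them in size. Het libraries held 65.3 to 80.3 CPM and KO libraries 22.4 to 34.7 CPM, a log2 difference of 1.31 (SE 0.21, p 4.26e-05, edgeR FDR 0.154), or 2.49-fold more in Het cells without overlap. It passed in 5 of 17 alternatives: with no filter (FDR 0.0103), DESeq2 (0.000157), limma-voom (0.0471), limma-voom with sample weights (0.00246) and limma-voom with a random recipient effect (0.0458). The highest FDR, 0.695, was that without KO GFP-negative 3. Pde4b (0.91, SE 0.24, FDR 0.600) and Pde4d (0.65, SE 0.20, FDR 0.871) were higher in every Het than in any KO library but did not pass edgeR's test. Thus 3 of 9 members did not overlap, against 11.3% of all tested genes. The remaining log2 differences were 0.40 (Pde2a), 0.28 (Pde1b), 0.21 (Pde3b), 0.24 (Pde8a), 0.14 (Pde7a) and -0.04 (Pde4a), with FDR from 0.979 to 1.00. The members' median was 0.28, beside 0.01 over all tested genes. These libraries are the GFP-negative side of the reporter comparisons on which the set was chosen. The p-values, FDRs, passes and median given here are therefore not separate from that choice, those of Pde5a least of all.

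Whether the reporter difference itself differed between the genotypes was tested by the interaction term. That term holds the reporter differences on which the set was chosen, so the members' values below are not separate from that choice. By edgeR 0 members were called, where 0.00755% of all tested genes were, and 3 members and 264 genes in all had an unadjusted p under 0.05. These 3 were Pde5a (-1.63, SE 0.37), Pde2a (1.43, SE 0.36) and Pde4b (-0.90, SE 0.34), each with FDR 1.00, and DESeq2 and limma-voom called 0 members too. With the recipient as a block, which called 0.0755% of all genes, their FDR was 0.170, 0.189 and 0.150. Pde2a passed in 1 of 23 alternatives, the block together with an offset for GC content and length (FDR 0.0453). The GFP difference of Pde5a or Pde2a is therefore not shown to differ between Het and KO cells by the main test.

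The genes whose levels over the 12 libraries were most like those of Pde5a were Clint1 (Pearson r 0.975), B3galt2 (0.972), Satb1 (0.963), Sgms1 (0.961) and Nebl (0.959), out of 9819 genes that averaged 5 CPM or more. Satb1, a chromatin organiser of T cells, went from 556 CPM in Het GFP-negative to 147.4 CPM in Het GFP-positive cells and from 305 to 164.9 CPM in KO cells. Those most like Pde2a included Gas7 (0.947), Lpin1 (0.944), Slamf6 (0.929) and Gpr155 (0.917). Lpin1, a phosphatidate phosphatase, was at 50.6 CPM without and 133.9 CPM with GFP in Het cells and at 38.3 and 44.7 CPM in KO cells, high in the same group as Pde2a. These are descriptions over libraries that fall into 4 groups and share recipients. Among the members, Pde5a was most like Pde4b (0.851) and least like Pde4a (-0.914), and Pde2a was most like Pde4d (0.846).

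Of the other 15 listed genes with a phosphodiesterase symbol, 4 passed the filter (Pde4c, Pde6d, Pde7b and Pde11a). The symbol alone does not show that a gene encodes an active enzyme. By edgeR 0 of the 4 were called in any of the 5 comparisons, with 0 or 1 of them at an unadjusted p under 0.05 in each. With the recipient as a block, Pde7b was called in Het cells (2.15, SE 0.67, FDR 0.0405) and Pde4c in KO cells (2.09, SE 0.60, FDR 0.0358), on 47 and 132 counts over all libraries. Over all tested genes the block called 22.2% in Het and 17.7% in KO cells. Pde11a, a dual-specificity enzyme, had mean levels of 10.5 ± 3.12 CPM without and 7.37 ± 2.08 CPM with GFP in Het cells, and of 14.1 ± 4.48 and 18.2 ± 5.30 CPM in KO cells (SD, n = 3). Its difference between Het and KO GFP-positive cells was -1.24 (SE 0.34, edgeR FDR 0.328). Pde1a and Pde6b had 0 counts in the 12 libraries.

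The 96 other listed genes of cyclic nucleotide signalling include these 15, and 59 of the 96 were tested. In Het cells 7 of 59 were called by edgeR between GFP-positive and GFP-negative libraries, 6 higher and 1 lower, beside 3.45% of all genes (1.82% higher, 1.63% lower). Among the cyclases 1 of 6 tested was called: Adcy9, an adenylyl cyclase, rose by 2.42 (SE 0.59, FDR 0.0453) from 0.301 ± 0.0965 to 1.74 ± 0.529 CPM, on 14 and 32 counts. Adcy7, an adenylyl cyclase of blood cells, had 377 ± 111.6 and 458 ± 161.0 CPM (0.28, SE 0.30, FDR 0.596). Adcy3 went from 26.4 ± 4.20 to 46.8 ± 14.9 CPM (0.81, SE 0.26, edgeR FDR 0.110, or 0.0105 when blocked by recipient). Gucy1a1 and Gucy1b1, the subunits of soluble guanylyl cyclase that makes cGMP in response to nitric oxide, were at most 1.27 CPM in any Het library and did not pass (FDR 0.238 and 0.123; Gucy1b1 0.0141 with the block). Among KO cells Gucy1a1 was called with the block (2.86, SE 0.38, FDR 0.00145) and not without it (FDR 0.172). In KO GFP-positive cells it was at 7.43 ± 4.28 CPM, against 0.644 ± 0.633 CPM in Het GFP-positive cells (-3.14, SE 0.79, edgeR FDR 0.277). The authors' deposited table lists it for these groups at 1.62 (adjusted p 0.00297, signed KO minus Het).

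Of the receptors that raise cAMP and their G protein, 2 of 10 tested were called in Het cells, beside 3.45% of all genes. With the recipient as a block 4 were called, beside 22.2% of all genes (3 higher and 1 lower, the receptor gene Vipr1 at -0.95, SE 0.27). Hrh2, a histamine receptor, rose from 18.4 ± 4.62 to 33.3 ± 7.51 CPM (0.87, SE 0.22, FDR 0.0473). Adrb1, a beta-adrenergic receptor, rose from 0.272 ± 0.164 to 3.79 ± 2.49 CPM (3.78, SE 0.85, FDR 0.0337). The adenosine receptor Adora2a, with 38.0 ± 8.08 and 65.4 ± 16.8 CPM, did not pass (0.78, SE 0.23, FDR 0.0800), but did with the block (FDR 0.00354). The prostaglandin receptors Ptger2 (-0.30, SE 0.35) and Ptger4 (0.15, SE 0.20) did not pass (FDR 0.628 and 0.687).

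Among the effectors, Pkib, an inhibitor of protein kinase A, fell from 7.96 ± 4.45 to 1.54 ± 0.879 CPM (-2.40, SE 0.58, FDR 0.0425). It was the 1 of 8 tested cAMP effectors that was called, against 3 when blocked by recipient. Over all tested genes the shares called were 3.45% and 22.2%. The level of Pkib was 1.35 ± 0.625 CPM in KO GFP-negative and 0.0747 ± 0.0649 CPM in KO GFP-positive cells. The kinase subunits Prkaca (0.05, SE 0.14), Prkacb (-0.23, SE 0.25) and Prkar1a (-0.10, SE 0.20) did not pass (FDR 0.598 to 0.852). Prkar2b, a further regulatory subunit, went from 2.80 ± 1.30 to 7.06 ± 2.75 CPM in Het cells without overlap (1.34, SE 0.39, FDR 0.0834) and from 3.71 ± 0.264 to 8.72 ± 1.76 CPM in KO cells (1.20, SE 0.39, FDR 0.225), and it was called in both with the block (FDR 0.00579 and 0.0159). Rapgef4, a cAMP-activated exchange factor, was called lower with the block in Het cells (-1.66, SE 0.51, FDR 0.0393). Irag2, listed with the cGMP effectors as a relative of a substrate of the cGMP-dependent kinase, rose from 66.9 ± 16.7 to 145.8 ± 20.8 CPM (1.13, SE 0.21, FDR 0.0145). Prkg1, that kinase itself, had 3 counts over all libraries and, like Rapgef3, a relative of Rapgef4, was not tested. Of 11 kinase anchors and 8 genes of the CREB family and its coactivators tested, 0 were called by edgeR, beside 3.45% of all genes. Crem (-0.07, SE 0.30) and Creb1 (-0.43, SE 0.23) were among them. Of the 2 lists, 0 and 1 had an unadjusted p under 0.05, beside 3072 of 13238 genes. With the recipient block 1 and 0 were called, beside 22.2% of all genes. Nr4a2, the 1 of 7 tested cAMP-responsive genes called (beside 3.45% of all genes), rose from 5.89 ± 3.57 to 49.2 ± 37.3 CPM (3.07, SE 0.54, FDR 0.0119). With the block, which called 22.2% of all genes, 4 of these 7 were called, all higher: Nr4a2, Per1 (0.80, FDR 0.0203), Dusp1 (0.85, FDR 0.00588) and Fosl2 (1.04, FDR 0.0143). In KO cells the block also called 4 of the 7, all higher, beside 17.7% of all genes. Nr4a2 also answers to other signals, such as antigen receptor stimulation. Abcc4, a transporter that exports cyclic nucleotides, rose from 62.9 ± 12.5 to 102.6 ± 12.1 CPM (0.70, SE 0.18, FDR 0.0484). It was 1 of 2 export genes called, beside 3.45% of all genes. With the block, which called 22.2% of all genes, the other, Abcc5, was called too (0.85, SE 0.21, FDR 0.0153).

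**Figure D5:**
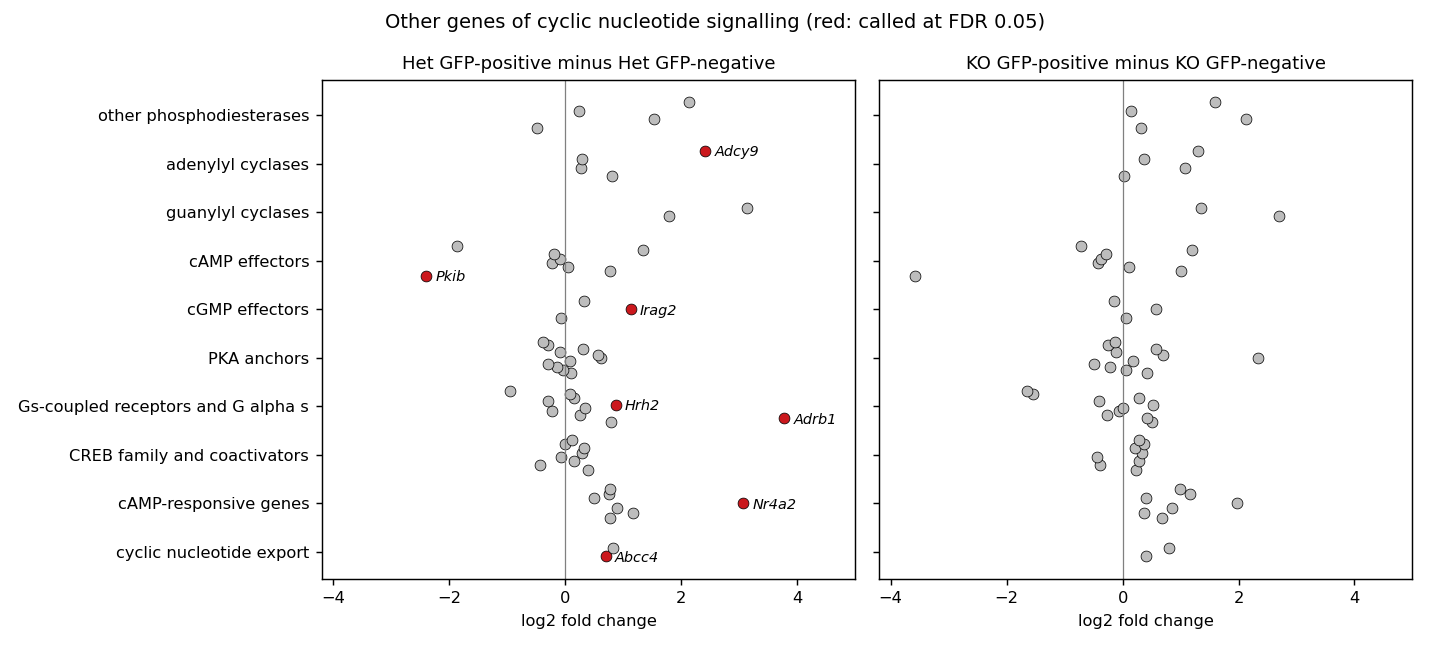
Fitted log2 fold changes of the 59 tested genes of cyclic nucleotide signalling other than the 9, by list, for GFP-positive minus GFP-negative Het cells (left) and KO cells (right). Red points with names are called by edgeR at FDR 0.05 without the recipient block: 7 in Het and 0 in KO cells, beside 3.45% and 0.128% of all tested genes. With the block 19 and 15 were called, beside 22.2% and 17.7%.

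Of the 7 calls, only that of Nr4a2 was kept in all 18 alternatives. Without a single library the number of all pathway genes called fell to 3, 1 and 4 (Het GFP-negative 1, 2 and 3). It fell to 2 and 3 without Het GFP-positive 1 and 2, and to 5 without Het GFP-positive 3. That number can hold genes outside the 7, such as Adcy3 (edgeR FDR 0.0395) and Adora2a (0.041) without Het GFP-positive 3. Adcy9, Pkib and Adrb1 lost their calls without any 1 of the 6 libraries (FDR up to 0.207, 0.104 and 0.163). Irag2 lost its call without Het GFP-negative 2 or Het GFP-positive 1 (0.0656 and 0.0509). Hrh2 lost its call without Het GFP-negative 1 or 2 or Het GFP-positive 1 or 3 (0.118, 0.217, 0.141 and 0.0804), and Abcc4 without Het GFP-negative 2 or 3 or Het GFP-positive 1 or 2 (0.208, 0.104, 0.125 and 0.141). Processing choices also ended calls: Hrh2 without dominant features (0.0542), with no filter (0.0601) and with only the 2 groups (0.0917), and Abcc4 with upper-quartile scaling (0.0536), no filter (0.0778), only the 2 groups (0.0826) and the GC and length offset (0.0596). Pkib was not called with limma-voom (0.0633) or only the 2 groups (0.0724), nor Adcy9 with the offset (0.0597). With the recipient as a block 19 of 59 were called, 15 higher and 4 lower, beside 22.2% of all genes. All of the 7 except Pkib were higher in the GFP-positive library of each Het recipient, and Pkib was lower in each.

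In KO cells 0 of the 59 genes were called between GFP-positive and GFP-negative libraries by edgeR, and 15 with the recipient as a block (12 higher, 3 lower), beside 0.128% and 17.7% of all genes. Of the 59, 16 had an unadjusted p under 0.05, beside 2321 of 13238 genes. DESeq2 called 6 and limma-voom 0, beside 390 of 23675 and 4 of 13238 genes. Without KO GFP-positive 1 the unblocked count was 8, beside 1760 of 13980 genes. KO log2 differences of the genes called in Het cells were 1.29 (SE 0.59) for Adcy9, -3.58 (SE 0.89) for Pkib, 0.58 (SE 0.21) for Irag2, 0.41 (SE 0.74) for Adrb1, 0.52 (SE 0.22) for Hrh2, 1.98 (SE 0.53) for Nr4a2 and 0.40 (SE 0.18) for Abcc4. Pkib rests there on 2 counts in the GFP-positive group. Between Het and KO cells 0 of 59 were called by edgeR, with 11 at an unadjusted p under 0.05 in GFP-positive and 8 in GFP-negative cells. Over all 13238 genes, 824 and 695 had such a p. DESeq2 called 2 and 1 of the 59, beside 95 and 45 of 23675 genes. In the interaction 0 of 59 were called by edgeR, DESeq2 and limma-voom. There 2 had an unadjusted p under 0.05, beside 264 of 13238 genes. A call in Het cells alone is therefore not shown to be a difference from KO cells.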

How the data were processed

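Total RNA was depleted of ribosomal RNA and made into stranded libraries, per the labels' protocols. The submitters' processing notes name mm10, bcl2fastq 1.8.4, TopHat2 2.0.13, featureCounts 1.5.0-p1 and DESeq2 1.6.1, without settings. The authors deposited whole-number counts per gene, not normalized, in a matrix and per-library files that held the same counts (0 cells differed). In the authors' deposited tables of comparisons, the values are log2 fold changes with standard errors, mean normalized counts (a signal), a test statistic (a score) and p-values. They list genes with an adjusted p-value under 0.05 and were used for description.

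Counts were tested with edgeR 4.0.16 in R 4.3.3: TMM scaling, filterByExpr (minimum count 10, total 15), 1 mean per group over 12 libraries, quasi-likelihood F tests and Benjamini-Hochberg adjustment over 13238 genes, with a call at FDR 0.05. The common dispersion was 0.0835. Tests were two-sided, and the fits were checked on simulated counts. GC content came from GENCODE M21 transcripts. Per the design text, the 2 libraries with the same number in a genotype come from 1 recipient. Their deviations from group means correlated with r 0.241 to 0.617, and libraries of different recipients were not compared in this way. They were taken as pairs in the within-recipient differences and in the recipient block, but the main test does not use the pairing. The block is printed beside counts of calls and for some genes outside the 9. For the members' reporter differences only its counts are given. No pair of replicates was a copy: their counts gave a chi-square of 40.5 to 326 per degree of freedom. The members and lists were chosen with earlier results of these data known. Named are Eomes, the 9 members, pathway genes called in any comparison, pathway genes taken whatever their values (Adcy7, Adcy3, Gucy1a1, Gucy1b1, Prkaca, Prkacb, Prkar1a, Prkg1, Rapgef3, Crem, Creb1, Adora2a, Ptger2, Ptger4 and Abcc4), and the 5 genes most like Pde5a and Pde2a. Some genes that this rule or the marker lists take are not reported here. The other phosphodiesterases and genes called only with the block were named after their values were seen. Alternatives were other scalings, filters, DESeq2, limma-voom, blocks, a GC and length offset and each library left out.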

Additional observations from a re-analysis of the deposited data

How the results depend on the processing

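The log2 differences of Pde5a and Pde4b between GFP-positive and GFP-negative cells kept their direction in 18 of 18 alternatives in each genotype. Member calls between Het and KO GFP-positive cells numbered 1, and 2 with no filter, DESeq2 or sample-weighted limma-voom, 0 with only the 2 groups, and 0 to 1 without single libraries. Over all genes, no filter called 72 and DESeq2 95 of 23675, and sample weights 51 of 13238. Between GFP-negative cells member calls numbered 0, and 1 with no filter, DESeq2, limma-voom, sample-weighted limma-voom or limma-voom with a random replicate block. Over all genes these called 26 and 45 of 23675, and 2, 81 and 4 of 13238. In the interaction, 1 member was called with the GC offset and replicate block against 0, beside 27 of 13146 genes. The replicate block alone called 0 there. Pathway calls in Het cells numbered 7, and 11 with DESeq2, 14 with sample weights, 4 with only the 2 groups, 19 with the replicate block, 21 with the GC offset and block, and 1 to 5 without single libraries. Over all genes in Het cells, DESeq2 called 1189 of 23675, sample weights 2190 of 13238 and the 2 groups alone 433 of 12593. The block called 2944 of 13238 genes and, with the GC offset, 2877 of 13146. In KO cells pathway calls numbered 0, and 3 with no filter, 6 with DESeq2, 28 with sample weights, 1 with only the 2 groups, 15 with the replicate block, 17 with the GC offset and block, and 0 to 8 without single libraries. Over all genes in KO cells, no filter called 201 and DESeq2 390 of 23675. Sample weights called 5808 of 13238 genes and the 2 groups alone 10 of 12439. The block called 2349 of 13238 genes and, with the GC offset, 2446 of 13146. Without KO GFP-positive 1 the calls were 1760 of 13980 genes. Between Het and KO GFP-positive cells 2 pathway genes were called with DESeq2, beside 95 of 23675 genes. Between GFP-negative cells 1 was called with no filter, DESeq2 or sample weights. Over all genes these called 26 and 45 of 23675 and 81 of 13238. The cause of these changes was not tested.

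Uncalled values near 0 changed sign. Pde4b between Het and KO GFP-positive cells (0.01) was -0.014, -0.015 and -0.029 with DESeq2 size factors, upper-quartile scaling and without dominant features, -0.008 and -0.020 with no or a stricter filter, -0.008 with DESeq2, -0.081 with sample weights, -0.043 with 2 groups, -0.036 with the GC offset and -0.231 to 0.116 without single libraries. There Pde4a (-0.01) was 0.032 with limma-voom, 0.020 with its random replicate block and -0.230 to 0.077 without single libraries, and Pde7a (0.14) -0.056 to 0.239. Between GFP-negative cells Pde4a (-0.04) was -0.188 to 0.006 and Pde8a (0.24) -0.038 to 0.413 without single libraries. In Het cells Prkaca (0.05) was -0.020 with no filter, -0.054 with the GC offset, -0.046 with the block added and -0.040 to 0.109 without single libraries. Prkar1a (-0.10) was 0.017 with sample weights and -0.312 to 0.085, and Crem (-0.07) 0.007 with the GC offset, 0.033 with the block added and -0.169 to 0.111. Ptger2 (-0.30) was -0.448 to 0.056 and Ptger4 (0.15) -0.089 to 0.322 without single libraries. Between GFP-positive and GFP-negative KO cells Pde2a changed sign in 2 of 18 alternatives (-0.409 to 0.188), Pde4d in 6 (-0.367 to 0.121) and Pde8a in 1 (-0.136 to 0.504). The interaction values of Pde4a and Pde7a lay near 0 and are not given.

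Depth limits Pde5a in GFP-positive cells, where a library held 2 to 29 counts, most of all in KO GFP-positive 2. With 3 libraries a group, no exact permutation test can go below 0.1.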
